A study of Homo sapiens with 6 samples.

Results

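Transcripts of 47 genes for proteasome subunits, activators and assembly factors were followed in 6 RNA-seq libraries of CFPAC-1, a human pancreatic cancer cell line of ductal origin. The genes are those whose symbol is PSM followed by a letter from A to G and a number, with a level of at least 1 on the TPM scale (a share of the library's transcripts, adjusted for their length) in at least 2 of the 6 libraries. Of 59962 genes in the deposited table, 48 had such a symbol and 47 reached that level, among 16610 genes that reached it in all. The gene left out was PSMB11, the catalytic subunit known from the thymus, which was listed at 0 in 5 libraries and at 0.21 TPM in LACZ_2. The 47 genes comprise 15 of the 20S core, 20 of the 19S regulator, 3 immunoproteasome subunits, 4 activators with 1 inhibitor, and 4 assembly chaperones of the PSMG family.

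All libraries were total RNA of CFPAC-1, and each group had 2 of them. The control cells, LACZ_1 and LACZ_2, carried a guide against LACZ, a bacterial gene that human cells lack. The other cells carried a guide against SULF2, which encodes a secreted sulfatase that edits heparan sulfate: sgRNA1 in S1_1 and S1_2, and sgRNA3 in S3_1 and S3_2. The labels call all of them knockdowns. The sources used here do not say how the guides act, whether the lines are clones, or whether the 2 libraries of a group were separate cultures. The p-values therefore measure only the spread between libraries, which may be technical.

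The proteasome is the protease that destroys proteins tagged with ubiquitin. Its 20S core is a barrel of alpha rings around beta rings, and the beta rings hold the proteolytic sites. The 19S regulator caps the barrel, binds ubiquitin, unfolds the substrate with a ring of ATPases and feeds it in. Interferon exchanges the catalytic subunits PSMB5, PSMB6 and PSMB7 for PSMB8, PSMB9 and PSMB10, which forms the immunoproteasome and changes the peptides offered to T cells.

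SULF2 itself, the target, read 25.69 (LACZ_1), 22.52 (LACZ_2), 8.98 (S1_1), 12.81 (S1_2), 10.07 (S3_1) and 9.24 TPM (S3_2). Between 15563 and 15923 genes per library reached 1 TPM, and the sequencing depth is unknown because TPM keeps none. The 6 tested of 7 duct markers summed with CFTR to 8663 to 8701 TPM in LACZ, 7526 to 7632 with sgRNA1 and 8179 to 8242 with sgRNA3, and CFTR itself reached at most 0.38 TPM in any library. Leukocyte markers, of which 2 of 6 were tested, summed to 8.86 to 16.68, 10.78 to 12.41 and 6.92 to 7.41 TPM in the same order, with the defining PTPRC and CD3E at means of 0.045 and 0.04. Fibroblast markers (3 of 5 tested) summed to 77.54 to 77.87, 58.57 to 60.5 and 37.54 to 41.72 TPM, nearly all of it COL1A1. Endothelial markers (1 of 4 tested) stayed between 4.33 and 5.25 TPM, and acinar and islet markers (1 of 6 tested) between 0.61 and 1.48 TPM. The part of any of these differences in the proteasome results was not tested.

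Proteasome transcripts were abundant and higher with either SULF2 guide. The 47 genes summed to 9569 and 9642 TPM in LACZ, 10595 and 10472 with sgRNA1, and 11215 and 11154 with sgRNA3. That is 0.957% and 0.964% of all transcripts in LACZ, 1.06% and 1.05% with sgRNA1, and 1.12% in both sgRNA3 libraries. The mean sum was 9.66% above LACZ with sgRNA1 and 16.4% above it with sgRNA3, and the 3 groups did not overlap. In bulk RNA, more cells of a kind and more RNA per cell cannot be told apart.

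Gene by gene, each call came from limma on log2(TPM + 1), with p-values adjusted over all 16610 genes and a threshold of 0.05. With sgRNA1, 6 of the 47 genes rose, while 1.69% of all genes tested rose. With sgRNA3, 18 of the 47 rose, against 3.84% of all genes. None fell with either guide by this test, where 4.31% and 5.25% of all genes fell. By limma at an unadjusted p under 0.05, the lower genes of the 47 numbered 1 with sgRNA1 and 0 with sgRNA3. Of all 16610 genes, 2696 and 2707 were lower at that threshold. The 6 genes that rose with sgRNA1 were PSMA3, PSMA7, PSMB2, PSMB7, PSMC2 and PSMD3, and each also rose with sgRNA3. The others that rose with sgRNA3 were PSMA1, PSMA4, PSMA6, PSMB8, PSMB9, PSMC1, PSMC5, PSMC6, PSMD1, PSMD12, PSME2 and PSME3. Both comparisons use the same LACZ libraries and are not independent.

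The median log2 change of the 47 genes was 0.13 with sgRNA1 and 0.18 with sgRNA3, beside -0.07 and -0.05 over all genes tested. Under median-of-ratios scaling the 47 genes had medians of 0.21 and 0.23, beside 0.003 with each guide over all genes. The change was positive for 38 genes with sgRNA1 (46 under median-of-ratios scaling and 41 under quantile normalization) and for 42 with sgRNA3 (43 and 42). In the main fit it was positive for 40.5% of all genes tested with sgRNA1 and 44.5% with sgRNA3. Both sgRNA1 libraries lay above both LACZ libraries for 29 of the 47 genes, beside 19.8% of all genes. Both sgRNA3 libraries did so for 37, beside 24.8% of all genes, and all 4 guide libraries did so for 28, beside 13.2%. The opposite held for 4 genes with sgRNA1 (PSMD7, PSMD14, PSME1 and PSMG2), beside 35.2% of all genes, and for 3 with sgRNA3 (PSMD9, PSMG2 and PSMG3), beside 34.3%. These changes are small, and the counts depend on single libraries. With sgRNA1, 0 genes passed without LACZ_1, 0 without LACZ_2, 0 without S1_1, 0 without S1_2, 1 without S3_1 and 0 without S3_2. With sgRNA3, the same omissions left 0, 1, 10, 10, 1 and 0 genes.

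**Figure D1:**
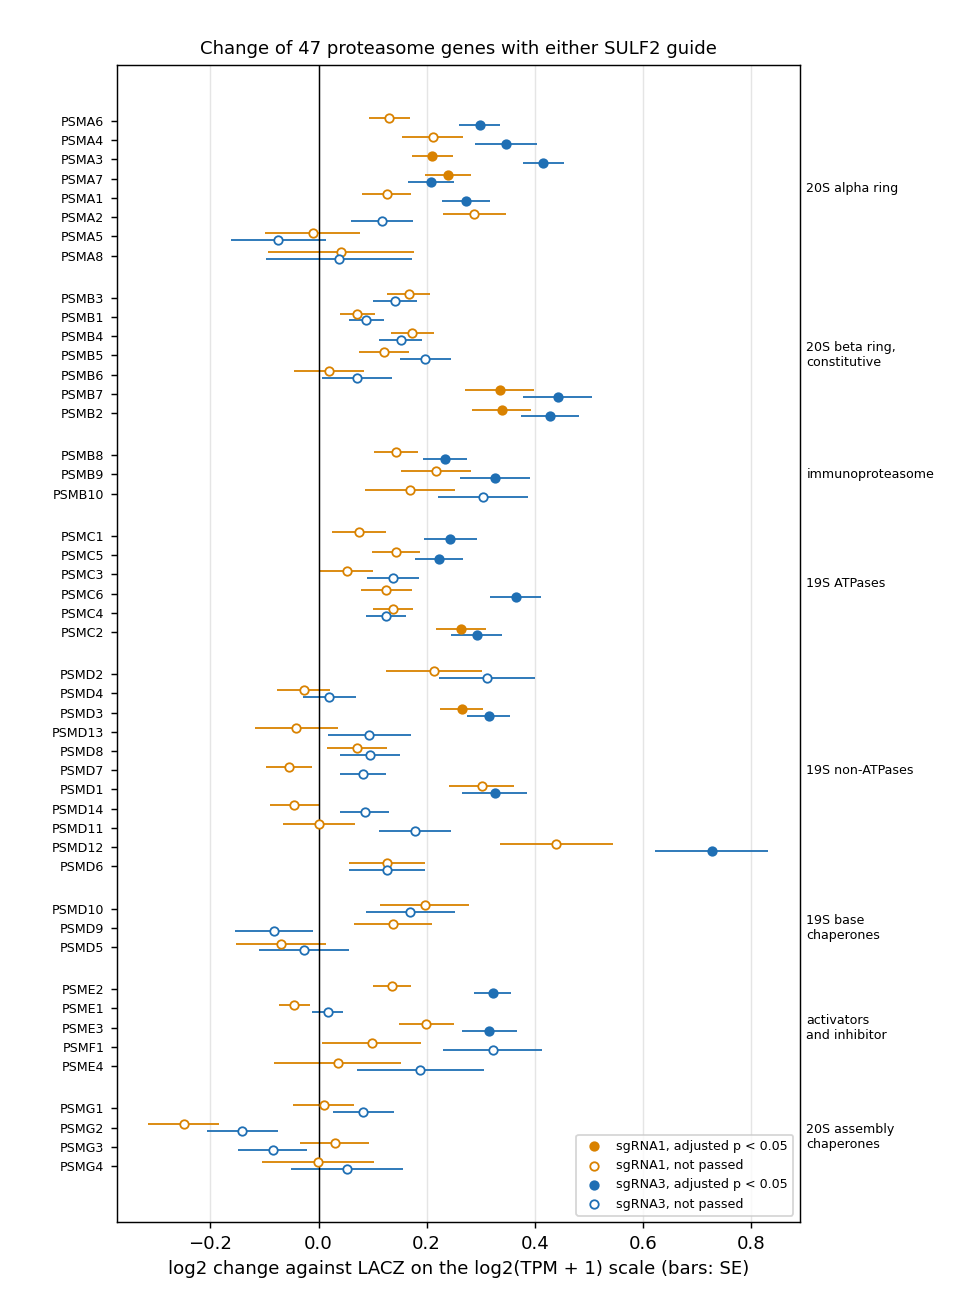
Log2 change of each of the 47 proteasome genes against LACZ on the log2(TPM + 1) scale, with sgRNA1 in orange and sgRNA3 in blue, bars giving the standard error and filled points a limma adjusted p under 0.05. Most points lie right of 0, the 6 filled orange points belong to genes whose blue point is filled as well, and the 4 PSMG genes lie on both sides of 0 with no filled point.

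The alpha ring, whose subunits gate the entrance to the barrel, held 2 genes that rose with sgRNA1 and 5 that rose with sgRNA3, of 8. Over all genes tested, 1.69% rose with sgRNA1 and 3.84% with sgRNA3. PSMA3 was at 403.37 and 403.3 TPM in LACZ, 480.19 and 454.15 with sgRNA1, and 541.94 and 534.99 with sgRNA3. The 3 groups of PSMA3 did not overlap, and sgRNA3 was the highest. The mean was 15.8% above LACZ with sgRNA1 (log2 change 0.21, SE 0.04, limma adjusted p = 0.0420) and 33.5% above it with sgRNA3 (0.42, adjusted p = 0.00754). PSMA7 was at 388.14 and 412.63 TPM in LACZ, 464.43 and 481.04 with sgRNA1, and 461.53 and 463.8 with sgRNA3. Here the sgRNA1 libraries were the highest, and the log2 changes were 0.24 (limma adjusted p = 0.0402) and 0.21 (0.0455).

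PSMA6, the most abundant alpha subunit, was at 542.46 and 515.59 TPM in LACZ, 571.99 and 586.66 with sgRNA1, and 653.03 and 647.9 with sgRNA3. All 4 guide libraries exceeded LACZ, and the gene rose with sgRNA3 (log2 change 0.30, limma adjusted p = 0.0150) but did not pass with sgRNA1 (0.13, 0.107). PSMA1 and PSMA4 rose with sgRNA3 by 0.27 and 0.35 on the log2 scale. PSMA2 did not pass with sgRNA1 (log2 change 0.29, limma adjusted p = 0.0527) or with sgRNA3 (0.12, 0.259). PSMA5 was at 59.63 to 69.96 TPM over all libraries, with overlapping groups. PSMA8, the alpha subunit known from the testis and a relative of PSMA7, was the lowest of the 47 genes, at 15.29 and 12 TPM in LACZ, 14.25 and 13.71 with sgRNA1, and 14.47 and 13.42 with sgRNA3. The PSMA8 groups overlapped throughout.

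The sgRNA1 calls of PSMA3 and PSMA7 were lost when any single library of the 6 was left out, LACZ_1 or LACZ_2, S1_1 or S1_2, S3_1 or S3_2 (limma adjusted p = 0.0773 to 0.172 and 0.0939 to 0.156). With sgRNA3, the calls of PSMA1, PSMA4 and PSMA7 were likewise lost without any of them (0.0590 to 0.129, 0.0595 to 0.126 and 0.0729 to 0.174). Those of PSMA3 and PSMA6 were lost without LACZ_1, LACZ_2, S3_1 or S3_2 (up to 0.0629 and 0.0962). The S3 libraries enter the sgRNA1 comparison, and the S1 libraries the sgRNA3 comparison, only through the shared estimate of the spread.

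**Figure D2:**
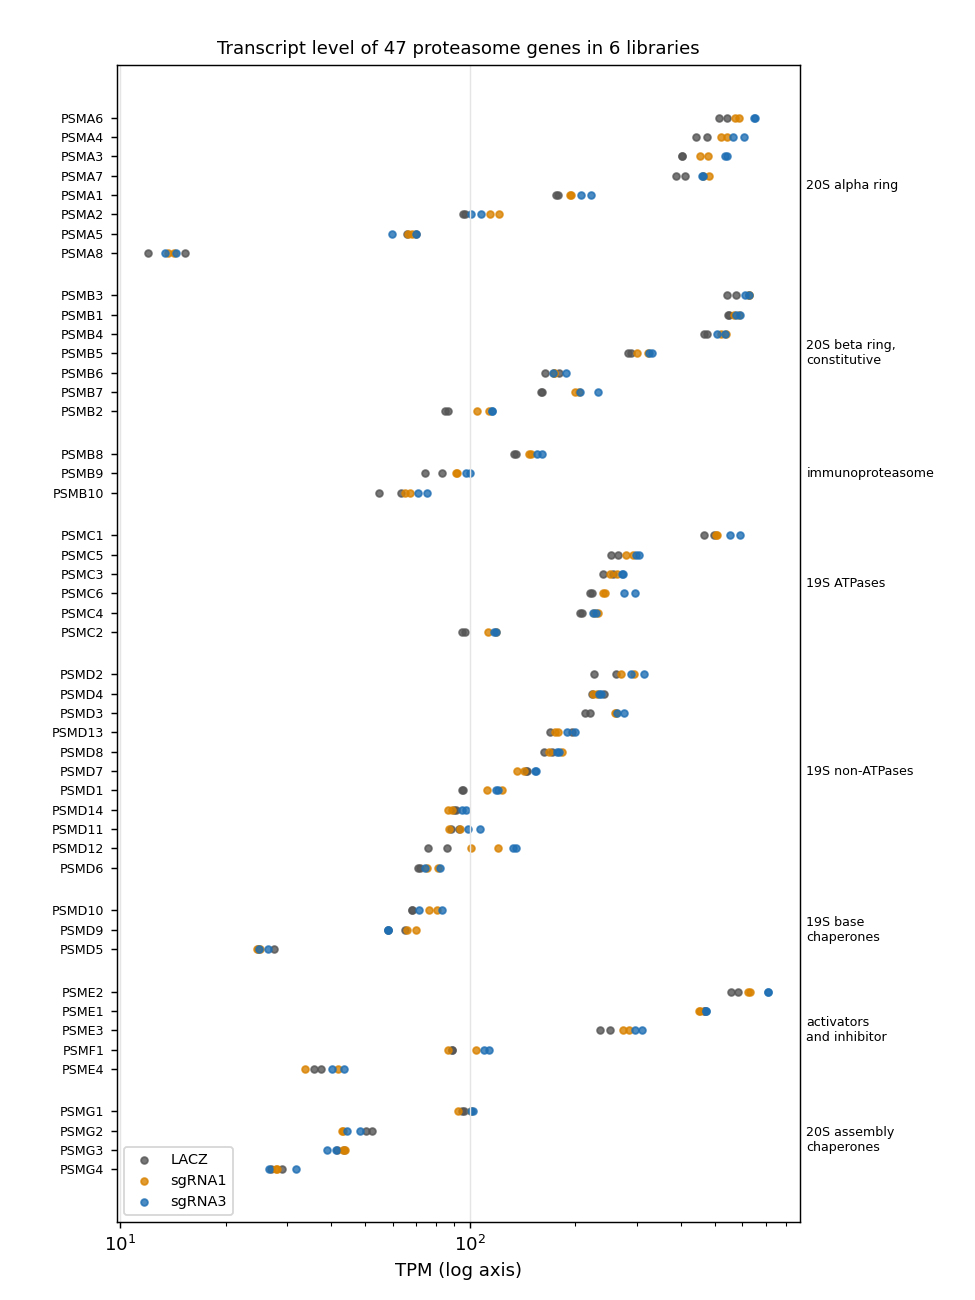
TPM of each of the 47 proteasome genes in each of the 6 libraries on a log axis, with 1 point per library, LACZ in grey, sgRNA1 in orange and sgRNA3 in blue. Levels run from PSMA8 at 13.6 TPM to PSME2 at 569.5 TPM (LACZ means), and the libraries of a gene lie much closer together than the genes of a group.

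In the constitutive beta ring, 2 of 7 genes rose with each guide, beside 1.69% (sgRNA1) and 3.84% (sgRNA3) of all genes tested. The 2 were PSMB2 and PSMB7 both times. PSMB2, a structural subunit and the least abundant of this ring, was at 84.72 and 86.66 TPM in LACZ, 112.92 and 104.52 with sgRNA1, and 115.74 and 115.52 with sgRNA3. PSMB7, which carries the trypsin-like site, was at 160.71 and 159.71 TPM in LACZ, 205.01 and 199.74 with sgRNA1, and 205.5 and 231.36 with sgRNA3. For both genes every guide library exceeded LACZ. PSMB2 was 26.9% above LACZ with sgRNA1 (log2 change 0.34, SE 0.05, limma adjusted p = 0.0315) and 34.9% above it with sgRNA3 (0.43, adjusted p = 0.0153). PSMB7 was 26.3% above LACZ with sgRNA1 (log2 change 0.34, SE 0.06, limma adjusted p = 0.0470) and 36.3% above it with sgRNA3 (0.44, adjusted p = 0.0211).

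The other constitutive beta genes did not pass with either guide. PSMB3, the most abundant of the ring, was at 541.86 and 576.95 TPM in LACZ, 627.85 and 627.49 with sgRNA1, and 608.98 and 625.01 with sgRNA3. All PSMB3 guide libraries exceeded LACZ, with log2 changes of 0.17 and 0.14 (limma adjusted p = 0.0797 and 0.0925). PSMB1, PSMB4, PSMB5 and PSMB6 had log2 changes of 0.07, 0.17, 0.12 and 0.02 with sgRNA1 and 0.09, 0.15, 0.20 and 0.07 with sgRNA3. PSMB5 and PSMB6 carry the chymotrypsin-like and caspase-like sites, so of the constitutive catalytic genes PSMB7 alone passed. All PSMB5 guide libraries exceeded LACZ (limma adjusted p = 0.191 with sgRNA1 and 0.0625 with sgRNA3), and the PSMB6 groups overlapped. The difference of either gene from PSMB7 was not tested.

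Leaving out any single library ended the sgRNA1 call of PSMB2 (limma adjusted p = 0.0718 to 0.156). That of PSMB2 with sgRNA3 ended without LACZ_1, LACZ_2, S3_1 or S3_2 (up to 0.0936). Both calls of PSMB7 were lost without LACZ_1, LACZ_2, S1_1, S1_2 or S3_2 (up to 0.184 with sgRNA1 and 0.113 with sgRNA3).

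The 19S ATPases, the motor that unfolds substrates, rose in 1 of 6 genes with sgRNA1 and in 4 of 6 with sgRNA3. The shares of all genes tested that rose were 1.69% and 3.84%. PSMC2, the least abundant of them, was at 95.01 and 96.76 TPM in LACZ, 118.2 and 112.47 with sgRNA1, and 118.56 and 116.84 with sgRNA3. Every guide library exceeded LACZ, with log2 changes of 0.26 (SE 0.05, limma adjusted p = 0.0407) and 0.29 (0.0267). PSMC1, the most abundant, was at 496.74 and 465.94 TPM in LACZ, 505.73 and 507.83 with sgRNA1, and 589.13 and 551.46 with sgRNA3. The sgRNA1 libraries lay just above LACZ and did not pass (a log2 change of 0.07, limma adjusted p = 0.415), and those of sgRNA3 rose by 0.24 (0.0448). PSMC6 and PSMC5 rose with sgRNA3 by 0.36 and 0.22 on the log2 scale, while PSMC3 and PSMC4 did not pass (0.14 and 0.13). The 6 genes ranged from 95.9 to 481 TPM in LACZ, although the ring holds 1 copy of each of their proteins.

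The sgRNA1 call of PSMC2 and the sgRNA3 calls of PSMC1 and PSMC5 were lost without any single library (limma adjusted p = 0.0968 to 0.176, 0.0843 to 0.171 and 0.0641 to 0.179). The sgRNA3 calls of PSMC2 and PSMC6 were lost without LACZ_1, LACZ_2, S3_1 or S3_2 (up to 0.130 and 0.0944). That of PSMC1 was lost under quantile normalization as well.

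Of the 11 non-ATPase genes of the regulator, 1 rose with sgRNA1 and 3 rose with sgRNA3, beside 1.69% and 3.84% of all genes tested. PSMD3, a structural subunit of the lid, was at 212.99 and 219.73 TPM in LACZ, 260 and 260.41 with sgRNA1, and 263.67 and 275.08 with sgRNA3. All guide libraries exceeded LACZ, and the log2 changes were 0.27 (SE 0.04, limma adjusted p = 0.0280) and 0.31 (0.0155). PSMD12, another lid subunit singled out here after its values were seen, was at 86.08 and 75.65 TPM in LACZ, 120.08 and 100.47 with sgRNA1, and 135.63 and 133.01 with sgRNA3. The 3 groups of PSMD12 did not overlap, and its mean was 36.4% above LACZ with sgRNA1 and 66.1% above it with sgRNA3. Of the 47 genes it had the largest log2 change with either guide, 0.44 with sgRNA1 (SE 0.10, limma adjusted p = 0.0764, not passed) and 0.73 with sgRNA3 (adjusted p = 0.0211). PSMD1, a scaffold of the base, rose with sgRNA3 by 0.33 and had a log2 change of 0.30 with sgRNA1 (limma adjusted p = 0.0531).

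The remaining 8 non-ATPase genes did not pass with either guide. PSMD2, the scaffold that docks ubiquitin shuttles and the most abundant of these genes, was at 226.12 and 260.77 TPM in LACZ, 294.19 and 269.87 with sgRNA1, and 289.04 and 314.89 with sgRNA3. All PSMD2 guide libraries exceeded LACZ, but its LACZ libraries differed by more than those of most members, and the limma adjusted p was 0.219 and 0.0909. PSMD6, the least abundant, was at 70.79 and 72.03 TPM in LACZ, 75.37 and 80.89 with sgRNA1, and 74.22 and 82.12 with sgRNA3. PSMD4, a ubiquitin receptor, and PSMD14, the enzyme that removes ubiquitin before degradation, had log2 changes of -0.03 and -0.04 with sgRNA1 and 0.02 and 0.09 with sgRNA3. The 4 genes PSMD7, PSMD8, PSMD11 and PSMD13 had log2 changes between -0.06 and 0.07 with sgRNA1 and between 0.08 and 0.18 with sgRNA3. With sgRNA1 the signs of PSMD4, PSMD7, PSMD13 and PSMD14 turned positive under median-of-ratios scaling.

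The base chaperones PSMD5, PSMD9 and PSMD10, which help to assemble the ATPase ring and then leave it, had no call with either guide. PSMD10, the most abundant of them, was at 68.22 and 68.25 TPM in LACZ, 76.24 and 80.49 with sgRNA1, and 71.39 and 82.83 with sgRNA3. All PSMD10 guide libraries lay above LACZ (log2 changes of 0.20 and 0.17). PSMD5, the least abundant, was at 24.83 and 27.56 TPM in LACZ, 25.1 and 24.66 with sgRNA1, and 26.37 and 24.99 with sgRNA3, with overlapping groups. PSMD9 had log2 changes of 0.14 with sgRNA1 and -0.08 with sgRNA3. Of all genes tested, 1.69% rose and 4.31% fell with sgRNA1, and 3.84% rose and 5.25% fell with sgRNA3. The absence of a call among so few base chaperones is near these shares.

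The sgRNA1 call of PSMD3 was lost without any single library (limma adjusted p = 0.0670 to 0.137). With sgRNA3, the calls of PSMD1, PSMD3 and PSMD12 were lost without LACZ_1, LACZ_2, S3_1 or S3_2 (up to 0.154, 0.0915 and 0.114).

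The promoters of PSMD12 and PSMD3, the lid genes named above, are shown because both hold the core of the antioxidant response element, the site known for the factors NFE2L1 and NFE2L2. Sequences are from RefSeq on GRCh38.p14, read 5′ to 3′ on the gene's strand, with the match in capitals. The PSMD12 stretch lies at chr17:67366708-67366767 on the minus strand, 60 bases long and beginning 190 bases before the start of transcription. The PSMD3 stretch lies at chr17:39980737-39980796 on the plus strand, 70 to 11 bases before the start.
PSMD12: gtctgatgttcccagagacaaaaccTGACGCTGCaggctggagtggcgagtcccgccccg
PSMD3: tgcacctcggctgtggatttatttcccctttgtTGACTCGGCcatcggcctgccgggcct

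RefSeq promoters were held for 41 of the 47 genes, all but PSMA7, PSMB1, PSMB6, PSMB7, PSMD4 and PSMG3. The motif TGACNNNGC, searched on both strands of the 250 bases before the start, was in 11 of the 41 (26.8%) and in 11.03% of all 27305 promoters. The 11 genes were PSMB3, PSMB9, PSMD3, PSMD5, PSMD9, PSMD12, PSME1, PSME2, PSME4, PSMG1 and PSMG2. Of these, 1 rose with sgRNA1 (PSMD3) and 4 rose with sgRNA3 (PSMB9, PSMD3, PSMD12 and PSME2), which is 9.09% and 36.4% of them. The shares among all 41 members with a promoter were close to these, at 9.76% and 39.0%. CCAAT, the box bound by NF-Y, was in 17 of the 41 (41.5%, against 33.0% of all promoters). A match says only that these letters are present.

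Immunoproteasome genes were transcribed at lower levels than their constitutive counterparts and were higher in every guide library than in LACZ. PSMB8 was at 133.09 and 135.42 TPM in LACZ, 147.24 and 149.45 with sgRNA1, and 155.68 and 160.58 with sgRNA3. PSMB9 was at 74.38 and 82.87 TPM in LACZ, 91.31 and 91.62 with sgRNA1, and 97.56 and 99.97 with sgRNA3. PSMB10 was at 63.31 and 54.83 TPM in LACZ, 67.44 and 65.29 with sgRNA1, and 70.9 and 75.11 with sgRNA3. In all 3 genes the groups did not overlap, with LACZ lowest and sgRNA3 highest. This order held for 17 of the 47 proteasome genes and for 4.94% of all genes tested.

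None of the 3 passed with sgRNA1 (log2 changes of 0.14, 0.22 and 0.17, limma adjusted p = 0.108, 0.117 and 0.288). PSMB8 and PSMB9 rose with sgRNA3 (log2 changes of 0.23, SE 0.04, and 0.33, SE 0.06, limma adjusted p = 0.0328 and 0.0430), and PSMB10 did not pass (0.30, adjusted p = 0.0847). Among all genes tested, 1.69% rose with sgRNA1 and 3.84% with sgRNA3. The calls of PSMB8 and PSMB9 were lost without any single library (0.0585 to 0.146 and 0.0757 to 0.169). PSMB8 (chromosome 6, 32840717 to 32844703 in GENCODE 29 on GRCh38) and PSMB9 (32844136 to 32859585) overlap on opposite strands, and PSMB9 also overlaps TAP1. The sources used here do not say whether the libraries are stranded, so reads from the shared stretch cannot be assigned to 1 gene with certainty. TAP1, named for this overlap, which carries peptides into the endoplasmic reticulum for MHC class I, had log2 changes of 0.04 with sgRNA1 and 0.44 with sgRNA3.

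**Figure D3:**
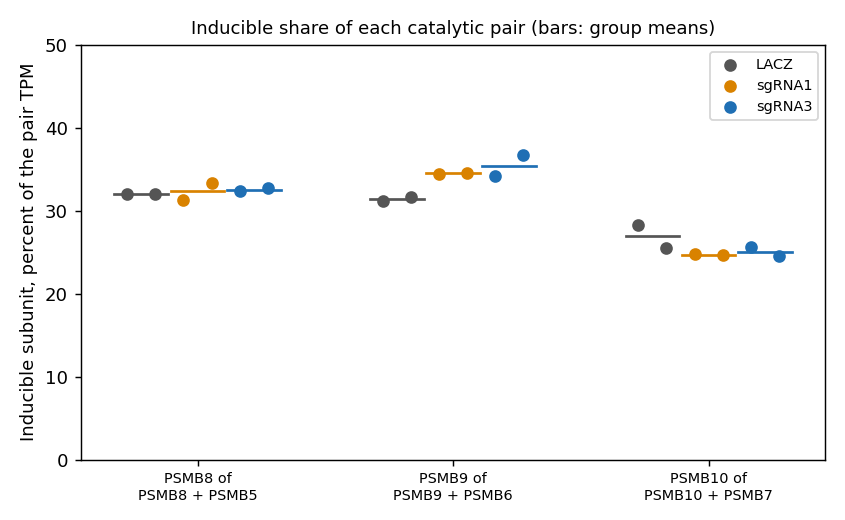
Share of the inducible subunit in the summed TPM of each catalytic pair, in percent, with 1 point per library and bars at the group means. The PSMB8 share lies between 31.3% and 33.3% in all libraries, the PSMB9 share is higher in all 4 guide libraries than in LACZ, and the PSMB10 share is highest in LACZ_1.

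Whether the inducible subunits gained on the constitutive subunits they replace was examined as the inducible share of each pair, which does not depend on the scaling of a library. PSMB8 made up 32.0% of the PSMB8 and PSMB5 transcripts in LACZ_1 and in LACZ_2, 31.3% and 33.3% with sgRNA1, and 32.4% and 32.7% with sgRNA3. PSMB9 made up 31.2% and 31.6% of the PSMB9 and PSMB6 transcripts in LACZ, 34.5% and 34.6% with sgRNA1, and 34.1% and 36.7% with sgRNA3. PSMB10 made up 28.3% and 25.6% of the PSMB10 and PSMB7 transcripts in LACZ, 24.8% and 24.6% with sgRNA1, and 25.7% and 24.5% with sgRNA3. The PSMB8 share of the guide libraries surrounded that of LACZ, the PSMB9 share was above it, and the PSMB10 share of LACZ_2 lay within that of the guide libraries.

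The mean PSMB8 share was 32.0% ± 0.013 for the LACZ libraries, 32.3% ± 1.39 for sgRNA1 and 32.5% ± 0.22 for sgRNA3 (SD, n = 2 each). The mean PSMB9 share was 31.4% ± 0.29, 34.5% ± 0.067 and 35.4% ± 1.81, and the mean PSMB10 share was 26.9% ± 1.91, 24.7% ± 0.084 and 25.1% ± 0.81, in the same order. These shares are given as values with no test, because comparing 4 guide libraries with 2 of LACZ pools different guides and, by exact permutation, cannot go below p = 0.0667. The PSMB10 share was not higher beside PSMB7, whose own transcripts rose with both guides.

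The activator PA28, a ring of PSME1 and PSME2 that interferon induces, showed unlike levels for its subunits. PSME2, the most abundant of the 47 genes, was at 555.52 and 583.48 TPM in LACZ, 621.34 and 629.88 with sgRNA1, and 711.18 and 712.75 with sgRNA3. The 3 groups of PSME2 did not overlap, and its mean was 9.85% above LACZ with sgRNA1 (log2 change 0.14, SE 0.04, limma adjusted p = 0.0900, not passed) and 25.0% above it with sgRNA3 (0.32, adjusted p = 0.0110). PSME1 was at 465 and 469.04 TPM in LACZ, 452.46 and 453.04 with sgRNA1, and 472.08 and 472.81 with sgRNA3. The PSME1 log2 changes were -0.04 and 0.02, neither passed (limma adjusted p = 0.406 and 0.749), and the sign with sgRNA1 turned under median-of-ratios scaling. Both genes lie on chromosome 14 within a short distance, PSME1 at 24136158 to 24138967 and PSME2 at 24143362 to 24147570, on opposite strands. Each overlaps another gene on the strand opposite to its own, PSME1 the end of EMC9 (24138959 to 24141588) and PSME2 RNF31 (24146683 to 24160661). Reads from those stretches cannot be assigned with certainty either.

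PSME3, the subunit of the nuclear activator PA28 gamma, rose with sgRNA3 (log2 change 0.32, limma adjusted p = 0.0267) and did not pass with sgRNA1 (0.20, 0.0864). PSME4, which encodes the activator PA200 and was the least abundant of this group, was at 37.57 and 35.75 TPM in LACZ, 41.92 and 33.71 with sgRNA1, and 43.73 and 40.16 with sgRNA3. The sgRNA1 libraries of PSME4 lay on both sides of LACZ, and the gene did not pass. PSMF1, the inhibitor PI31, was 25.4% above LACZ with sgRNA3 and did not pass (a log2 change of 0.32, limma adjusted p = 0.0913). The sgRNA3 call of PSME2 was lost without LACZ_1, S3_1 or S3_2 (adjusted p up to 0.0812), and that of PSME3 without any single library (0.0534 to 0.130).

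The promoters of PSME2, PSMB10 and PSMG4 are shown because they hold the same 10 letters, in capitals, of an interferon regulatory factor element (GAAA, any pair of bases, then GAAA again). The stretches are from RefSeq on GRCh38.p14 and end 11, 6 and 16 bases before the start of transcription. They lie at chr14:24146621-24146650 on the minus strand for PSME2, chr16:67936856-67936885 on the minus strand for PSMB10, and chr6:3258902-3258931 on the plus strand for PSMG4.
PSME2: gacctggggagtGAAAGCGAAAgcccgggc
PSMB10: ggaagggtaaaggcGAAAGCGAAAgcagga
PSMG4: ccttccggggccGAAAGCGAAAgcgcgctc

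The element, searched on both strands, was in 5 of the 41 promoters (12.2%) and in 3.07% of all promoters. The other members with it were PSMA4 and PSMB4. None of the 5 passed with sgRNA1. With sgRNA3, PSMA4 and PSME2 rose (log2 changes of 0.35 and 0.32), and PSMB4, PSMB10 and PSMG4 did not pass (0.15, 0.30 and 0.05). These are 2 of 5, beside 39.0% of all members with a promoter.

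The PSMG genes, whose products (PAC1 to PAC4) guide the building of the alpha ring and are not part of the finished barrel, had no call with either guide. Over all genes tested, 1.69% rose and 4.31% fell with sgRNA1, and 3.84% rose and 5.25% fell with sgRNA3. The absence of a call among so few genes is near these shares. PSMG1, the most abundant, was at 96.35 and 94.7 TPM in LACZ, 92.22 and 100.32 with sgRNA1, and 100.62 and 101.79 with sgRNA3. PSMG2, its partner, was at 52.3 and 50.43 TPM in LACZ, 43.18 and 42.9 with sgRNA1, and 48.48 and 44.58 with sgRNA3. All 4 guide libraries of PSMG2 lay below both LACZ libraries, as they did for 23.4% of all genes tested. Its log2 changes were -0.25 (SE 0.07, limma adjusted p = 0.0935) and -0.14 (0.239), and neither passed.

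PSMG3 was at 41.6 and 43.69 TPM in LACZ, 43.3 and 43.82 with sgRNA1, and 41.31 and 39.01 with sgRNA3. PSMG4, the least abundant, was at 28.98 and 27.01 TPM in LACZ, 28.04 and 27.89 with sgRNA1, and 26.58 and 31.78 with sgRNA3. The sgRNA1 libraries of both genes overlapped LACZ or lay between its values. The limma adjusted p of PSMG1, PSMG3 and PSMG4 was 0.937, 0.817 and 0.999 with sgRNA1 and 0.401, 0.446 and 0.779 with sgRNA3.

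**Figure D4:**
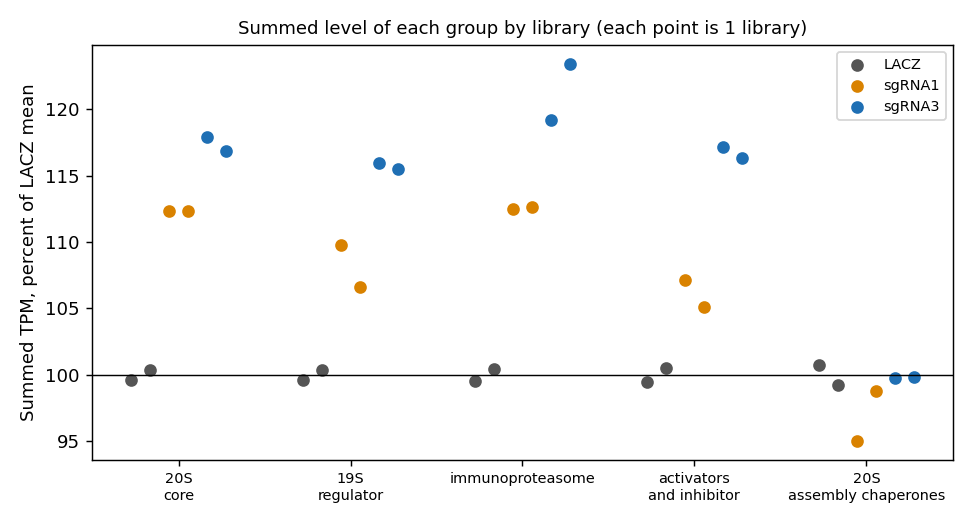
Summed TPM of 5 groups of proteasome genes in each library, as a percentage of the LACZ mean of that group, with 1 point per library. In the 20S core, the 19S regulator, the immunoproteasome and the activators the sgRNA1 and sgRNA3 libraries lie above LACZ and sgRNA3 is highest, and the 20S assembly chaperones lie at or just below the LACZ level.

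Set side by side, the 20S core, the 19S regulator, the immunoproteasome and the activators with the inhibitor summed higher with either guide. The PSMG group summed to values within or below those of LACZ. The 19S regulator is counted here with its base chaperones PSMD5, PSMD9 and PSMD10, so the groups do not separate structural genes from assembly genes. The 20S core summed to 4428 TPM in LACZ, and its sum was 12.3% above that with sgRNA1 and 17.4% above it with sgRNA3. The 19S regulator summed to 3283 TPM and was 8.18% and 15.7% above LACZ. The immunoproteasome summed to 272 TPM and was 12.6% and 21.3% above, and the activators with the inhibitor summed to 1405 TPM and were 6.11% and 16.8% above. The PSMG genes summed to 219.23 and 215.83 TPM in LACZ, 206.74 and 214.93 with sgRNA1, and 216.99 and 217.16 with sgRNA3.

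The median log2 change was 0.17 and 0.20 for the 20S core, 0.13 and 0.15 for the 19S regulator, 0.17 and 0.30 for the immunoproteasome, 0.10 and 0.32 for the activators with the inhibitor, and 0.00 and -0.02 for the PSMG genes (0.09 and 0.04 under median-of-ratios scaling, 0.06 and 0.01 under quantile normalization). Under median-of-ratios scaling the sgRNA1 medians of the first 4 groups were 0.25, 0.21, 0.25 and 0.18. The sgRNA1 median of the activators with the inhibitor was -0.03 without S1_1 and 0.19 without S1_2. The difference between groups was not tested.

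The 2 guides gave no proteasome gene a call against each other, where 0.578% of all genes tested had one. By limma at an unadjusted p under 0.05, 10 of the 47 were higher and 2 lower with sgRNA3 than with sgRNA1. Of all 16610 genes tested, 1576 were higher and 974 lower at that threshold. The median log2 difference was 0.08, beside 0.04 over all genes. The difference was positive for 36 of the 47 genes and for 56.8% of all genes. Under median-of-ratios scaling the median was 0.05, beside 0.012 over all genes, with 33 genes positive, and under quantile normalization it was 0.04, beside 0.0019, with 31 positive. Without S1_2 it was 0.05, beside 0.0066 over all genes. A larger number of calls with sgRNA3 than with sgRNA1 is therefore not a shown difference between the guides for any of the genes.

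Levels differed far more between members than between groups of libraries. The LACZ mean ran from 13.6 TPM for PSMA8 to 569.5 TPM for PSME2, a 41.7-fold range, with a median of 160 TPM beside 13.5 TPM for all genes tested. The alpha ring, whose subunits are present in equal copies in the particle (with PSMA8 in place of PSMA7), spanned 68.0 TPM for PSMA5 to 529 TPM for PSMA6 without PSMA8. Across the 47 genes, the log2 change with sgRNA1 had a Spearman rho of 0.196 with the LACZ level, and that with sgRNA3 had 0.298. These describe genes within the same libraries, with LACZ in both measures.

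Other proteasome subunits and partner factors fall outside the symbol rule. The 10 listed here were POMP, PAAF1, ADRM1, SEM1, UCHL5, USP14, UBE3C, ECPAS, TXNL1 and AKIRIN2. Of these 10 genes, 0 rose and 1 fell with each guide. Of all genes tested, 1.69% and 3.84% rose and 4.31% and 5.25% fell with sgRNA1 and sgRNA3. AKIRIN2, which brings proteasomes into the nucleus, was at 33.07 and 28.92 TPM in LACZ, 21.23 and 21.47 with sgRNA1, and 19.76 and 20.27 with sgRNA3. It fell with both guides (log2 changes of -0.51 and -0.60, limma adjusted p = 0.0388 and 0.0228), while most genes of the particle were higher. Both AKIRIN2 calls were lost without any single library (0.0910 to 0.158 and 0.0524 to 0.117), and that with sgRNA1 was also lost under median-of-ratios scaling and quantile normalization. POMP, the chaperone that completes the beta ring, had log2 changes of 0.34 and 0.36 and did not pass (0.105 and 0.0762).

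Of 8 genes that control transcription of proteasome genes, 2 fell and 0 rose with each guide, where 4.31% and 5.25% of all genes fell. NFE2L1, the factor known to raise proteasome genes when the proteasome is inhibited, was at 195.93 and 229.41 TPM in LACZ, 218.57 and 223.12 with sgRNA1, and 202.16 and 189.87 with sgRNA3, and did not pass. NFE2L2, the factor of the oxidative stress response, was at 129.38 and 121.71 TPM in LACZ, 81.99 and 76.46 with sgRNA1, and 89.76 and 82.76 with sgRNA3. MAFF, a small partner of both factors on DNA, was at 59.56 and 57.91 TPM in LACZ, 26.25 and 24.38 with sgRNA1, and 27.61 and 28.61 with sgRNA3.

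NFE2L2 fell (log2 changes of -0.66 and -0.54, limma adjusted p = 0.0115 and 0.0155), and so did MAFF (-1.18 and -1.04, 0.00206 and 0.00333). NFE2L2 and MAFF were thus lower in the libraries where most proteasome genes were higher, and a link between them was not tested. Leaving out a library ended neither call of MAFF. NFE2L2 lost its sgRNA1 call without LACZ_1, LACZ_2, S1_1 or S1_2 (up to 0.0896) and its sgRNA3 call without LACZ_1, LACZ_2, S3_1 or S3_2 (up to 0.0944).

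**Figure D5:**
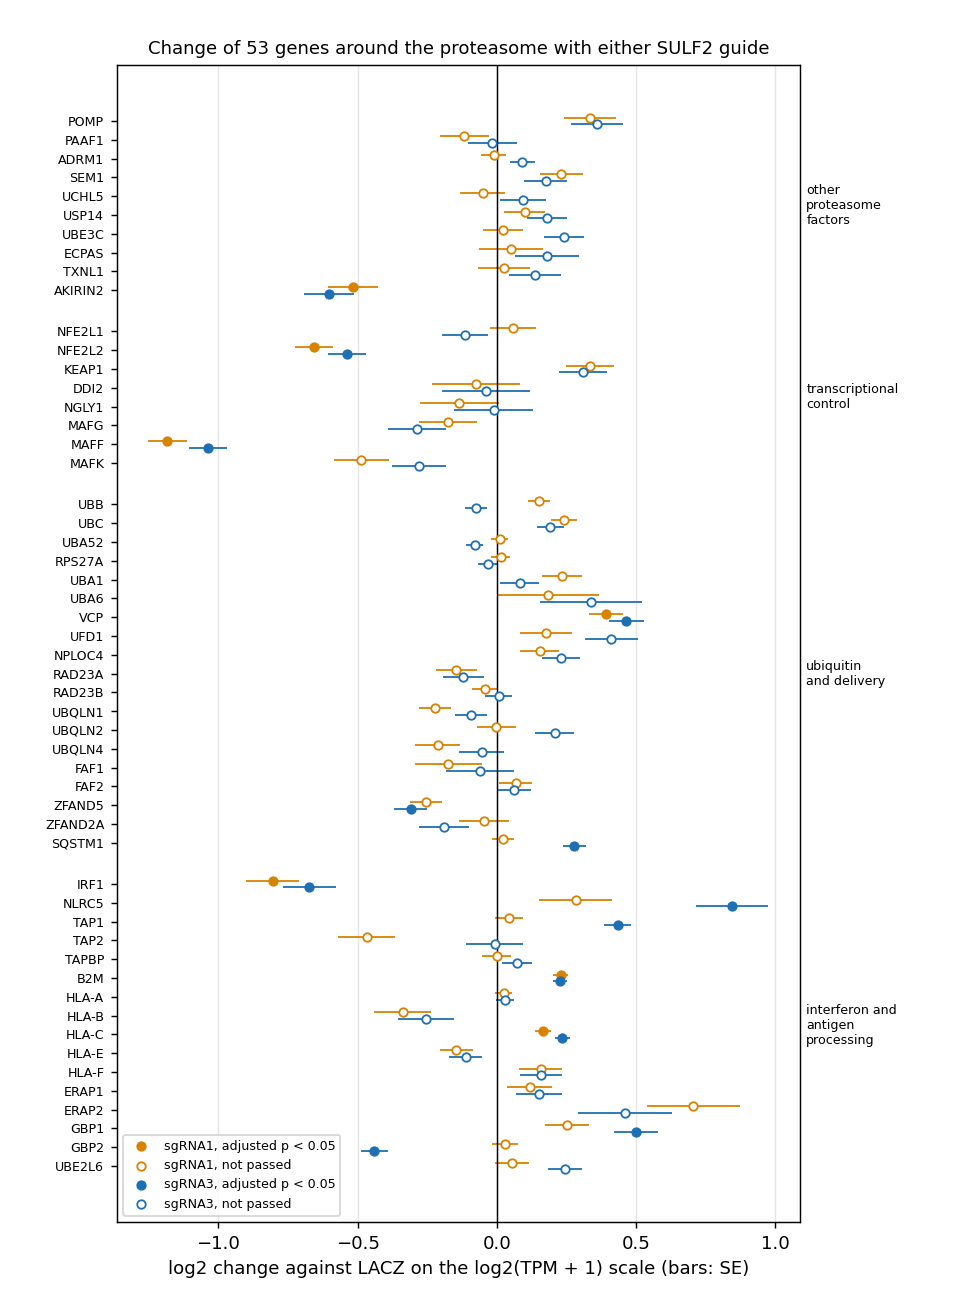
Log2 change against LACZ on the log2(TPM + 1) scale of 53 further genes around the proteasome, in 4 lists, with sgRNA1 in orange and sgRNA3 in blue, bars giving the standard error and filled points a limma adjusted p under 0.05. AKIRIN2, NFE2L2, MAFF and IRF1 are filled on the left for both guides, and VCP, B2M and HLA-C are filled on the right for both.

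Of 19 genes of ubiquitin and its delivery to the proteasome, 1 rose with sgRNA1, and 2 rose and 1 fell with sgRNA3. Of all genes, 1.69% rose with sgRNA1, and 3.84% rose and 5.25% fell with sgRNA3, so a single gene of 19 is near the background. VCP, the unfoldase that extracts ubiquitin-tagged proteins, was at 93.38 and 92.49 TPM in LACZ, 126.89 and 117.95 with sgRNA1, and 123.82 and 133.88 with sgRNA3. It rose with both guides (log2 changes of 0.39 and 0.47, limma adjusted p = 0.0305 and 0.0172). Its sgRNA1 call was lost without any single library (0.0636 to 0.144) and its sgRNA3 call without LACZ_1, LACZ_2, S3_1 or S3_2 (up to 0.101). The other calls with sgRNA3, named after their values were seen, were SQSTM1, an autophagy receptor that binds ubiquitin (0.28), and ZFAND5, a proteasome activator (-0.31). Leaving out LACZ_1, LACZ_2, S3_1 or S3_2 ended the SQSTM1 call (up to 0.117). That of ZFAND5 was lost without any single library (0.0585 to 0.161) and under median-of-ratios scaling.

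Of 16 genes of the interferon response and antigen processing, 2 rose and 1 fell with sgRNA1, and 5 rose and 2 fell with sgRNA3. Over all genes, 1.69% rose and 4.31% fell with sgRNA1, and 3.84% rose and 5.25% fell with sgRNA3. B2M, the light chain of MHC class I, rose by 0.23 with each guide (limma adjusted p = 0.0150 and 0.0131), and HLA-C, a heavy chain, rose by 0.17 and 0.24 (0.0352 and 0.0131). IRF1, an interferon-induced transcription factor, was at 125.2 and 122.34 TPM in LACZ, 74.41 and 66.61 with sgRNA1, and 71.22 and 83.78 with sgRNA3, and fell with both guides (log2 changes of -0.81 and -0.67, limma adjusted p = 0.0164 and 0.0209). The other calls with sgRNA3, named after their values were seen, were TAP1, GBP1 and NLRC5 (log2 changes of 0.44, 0.50 and 0.85) and GBP2 (-0.44). Members of this list thus passed in both directions beside the immunoproteasome genes. The sgRNA1 calls of B2M and HLA-C were lost without any single library (up to 0.0851 and 0.155) and under quantile normalization (log2 changes of 0.14 and 0.16, limma adjusted p = 0.103 and 0.0749). Their sgRNA3 calls were lost without LACZ_2, S3_1 or S3_2 (up to 0.0954) and, for HLA-C, also without LACZ_1 (up to 0.0927). IRF1 lost its calls without either LACZ library or either library of the guide in question (up to 0.110 and 0.112). The calls of GBP1 and NLRC5 were lost without any single library (0.0503 to 0.124 and 0.0523 to 0.121), and the sgRNA3 calls of TAP1 and GBP2 without LACZ_1, LACZ_2, S3_1 or S3_2 (up to 0.0822 and 0.0766). Without the variance trend, the calls against LACZ named from these 4 lists were lost, except those of MAFF and NLRC5.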

How the data were processed

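The authors deposited a single table of TPM values per gene, per the file headers, with gene lengths (other unit, not used in any test) and group means, of which the 3 mean columns were not used. HISAT2 2.1.0, RSEM 1.3.1, DESeq2 1.24.0 and GRCh38 are named in the submitters' processing notes. DESeq2 was not used here, since TPM values are not counts and keep no depth, so values carry no counting intervals. The sources used here do not name the annotation release. The guide number joined the column names (H1, H3) to the titles (S1, S3). Genes at a TPM of at least 1 in at least 2 libraries were tested with limma 3.58.1 (R 4.3.3) on log2(TPM + 1), a scale that understates changes of low genes, with a variance trend, all 3 groups in 1 fit (residual df 3, prior df 2.34) and Benjamini-Hochberg adjustment over all genes. The fit was also run on data simulated with independent noise from its own variances. Such data cannot show how it performs where libraries depend on each other. The exact permutation test of inducible shares could not reach 0.05 and is not reported. Positions came from GENCODE 29, and promoters came from RefSeq. In GENCODE 29, 25 of the 47 genes overlap a gene on the opposite strand, among them PSMA3 and PSMC2, which passed with both guides. PSMA1, PSMA2, PSMA6, PSMB10 and PSMD9 overlap a protein-coding gene on the same strand. Reads from such stretches are uncertain whether or not the libraries are stranded. Members, lists and tests were chosen with earlier results of these data known. Library values were given for the immunoproteasome, PSME1, PSME2 and PSMG genes, for genes that passed with both guides, and for the most and least abundant gene of each group. Of other lists, genes that passed with both guides were named, at most 4 per list. Among the marker lists, KRT18, KRT19 and COL1A1 fell with both guides. Their log2 changes with sgRNA1 were -0.34, -0.23 and -0.39 (limma adjusted p = 0.00564, 0.00858 and 0.0403). With sgRNA3 they were -0.20, -0.15 and -0.99 (0.0200, 0.0225 and 0.00361). Of these calls, median-of-ratios scaling kept those of KRT18 with sgRNA1 and COL1A1 with sgRNA3. Without the variance trend, only the latter was kept. A gene of the interferon list is not reported here. Alternatives changed the pseudocount, filter, scaling, variance trend, groups in the fit, replicate block or libraries.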

Additional observations from a re-analysis of the deposited data

Results flagged for a closer look

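GBP2 and COL1A1, both outside the 47 proteasome genes, differed between the guides in limma, with sgRNA3 set against sgRNA1. GBP2, an interferon-induced GTPase, had a log2 difference of -0.469, at 76.63 and 76.17 TPM with sgRNA1 and 55.5 and 54.34 with sgRNA3. COL1A1, a collagen used here as a fibroblast marker, had a log2 difference of -0.597, at 57.42 and 55.51 TPM with sgRNA1 and 39.01 and 35.08 with sgRNA3. The limma adjusted p was 0.0361 and 0.0463. Both calls were lost when any single library of the 6 was left out, LACZ_1 or LACZ_2, S1_1 or S1_2, S3_1 or S3_2 (0.124 to 0.180 for GBP2 and 0.0956 to 0.193 for COL1A1). None of the 47 proteasome genes had such a call.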

How the results depend on the processing

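The number of proteasome genes called lower (0) and called between the guides (0) was the same under each alternative run. With sgRNA1, the 6 genes that rose became 0 without the filter on low values, 0 without the variance trend, 0 with only the groups compared and 15 under median-of-ratios scaling, and ranged from 0 to 1 with a library left out. With sgRNA3, the 18 became 9 without the filter, 0 without the trend and 10 with only the groups compared, and ranged from 0 to 10 with a library left out. Other settings gave 6 to 8 and 17 to 23. The cause was not tested, except that leaving out a library or fitting only the groups compared uses fewer samples. Same-numbered libraries did not deviate together (correlations -0.02, 0.01 and -0.03). The sources used here do not say whether they were prepared together, and the main fit did not pair them. The fit with a replicate block gave 0 genes with sgRNA1, 8 with sgRNA3 and 0 between the guides. Over all genes, 281 rose and 716 fell with sgRNA1 (606 and 576 under median-of-ratios scaling, 442 and 560 under quantile normalization), and 637 rose and 872 fell with sgRNA3 (1042 and 788, 776 and 808). The inducible share of the 4 guide libraries minus that of LACZ, on average, ranged from 0.165 to 0.822 percentage points for PSMB8, 2.96 to 3.81 for PSMB9 and -3.37 to -0.670 for PSMB10 with a library left out. Depth is unknown, so its limit on the members at low levels cannot be given, and 2 libraries per group limit every test.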
